A study of Mus musculus with 6 samples.

Results

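Hypoxia-induced genes were examined in regulatory T (Treg) cells that infiltrated MC38 tumours. They are the 10 genes Hif1a, Egln1, Egln3, Vegfa, Pdk1, Bnip3, P4ha1, Kdm3a, Ndrg1 and Ankrd37, taken by symbol from a table of 55450 genes. All 10 were present once, and all 10 were among the 12155 genes that had at least 1 TPM (a transcript abundance scaled by length and to a fixed total of 1000000 per library) in at least 3 of the 6 libraries. The study compared Treg cells of C57BL/6 mice that carried MC38, a mouse colon carcinoma line, with Tim-3 deficient Treg cells in 3 libraries and Tim-3 sufficient Treg cells in the other 3. Tim-3 is an inhibitory receptor of T cells, encoded by Havcr2. The labels put the deficiency in Treg cells; the allele, any Cre driver, and the age and sex of the mice are not given in the sources used here, nor is whether each library is a separate mouse. P-values thus rest on the variation of these libraries alone, part of which may be technical.

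When oxygen is plentiful, prolyl hydroxylases of the EGLN family modify the protein made from Hif1a, and the VHL ubiquitin ligase then marks it for destruction. When oxygen is short the protein persists, pairs with ARNT, and binds short DNA elements with the core ACGTG or GCGTG near genes of glycolysis, mitochondrial restraint, vessel growth and collagen modification. Because HIF1A is controlled largely as a protein, the level of Hif1a RNA is a poor guide to its activity, and the RNA of its target genes is commonly read instead. Tumours are often poorly oxygenated, and HIF1A is known to shape the metabolism and stability of Treg cells.

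Libraries are named here by the marks in the deposited column names: deficient C1, deficient D and deficient dated, and sufficient A1, sufficient B1 and sufficient dated. The dated library of each group carries a calendar date in its name, and what the date refers to is not stated. A library had 11470 to 12681 genes at 1 TPM or more. Havcr2 had log2(TPM + 1) values of 3.54, 4.27 and 2.55 in the deficient libraries (C1, D and dated), against 5.70, 5.64 and 4.49 in the sufficient libraries (A1, B1 and dated). The Treg label was met: Foxp3 stood at 46.1, 43.6 and 42.3 TPM in deficient and at 45.0, 36.0 and 27.2 TPM in sufficient libraries, and all 8 markers of Treg and T cells exceeded 1 TPM. Transcripts of other cells were uneven. The sum over 13 macrophage and monocyte markers was 1795 TPM in deficient C1, 26.1 in deficient D and 26.0 in deficient dated, against 142 in sufficient A1, 1079 in sufficient B1 and 28.7 in sufficient dated. Fibroblast markers summed to 296 TPM in deficient C1 and to between 1.82 and 39.6 TPM in the other 5 libraries. Most of the deficient C1 sum was Dcn, at 275 TPM, with Col3a1 at 20.0 TPM. Col1a1, Col1a2, Pdgfra and Pdgfrb stood there at 0.13, 0.38, 0.14 and 0.69 TPM. The 5 B cell markers separated the groups, with sums of 186, 203 and 243 TPM in deficient C1, D and dated, against 56.2, 51.2 and 173 TPM in sufficient A1, B1 and dated. Most of that was Igkc, an antibody light chain gene, and Ms4a1 was listed at 0 in all 6 libraries. Cd3d and Cd3e, which encode chains of the T cell receptor complex, were lower in every deficient library. Cd3d stood at 603, 781 and 921 TPM in deficient C1, D and dated, against 1054, 1047 and 1133 TPM in sufficient A1, B1 and dated. They were 2 of the 8 Treg and T cell markers, against 6.73% of all genes in that direction. Cd3g overlapped, at 1867 TPM in deficient dated and 1852 TPM in sufficient A1. Of the 8 markers, 6 had a negative log2 fold change, and Foxp3 (0.31) and Ikzf2 (0.066) a positive one. Neutrophil, dendritic cell, CD8 T and NK cell, epithelial and endothelial markers summed to between 0.78 and 44.6 TPM per list and library.

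Promoter sequence is shown for the 3 genes whose deficient and sufficient libraries did not overlap (P4ha1, Pdk1 and Egln1) and for Bnip3, the most abundant of the 10 genes. The sequences are RefSeq's on GRCm38.p6, read 5′ to 3′ on the strand of the gene, and capitals mark every ACGTG or GCGTG on either strand, so that CACGT and CACGC are the same cores read from the opposite strand. P4ha1 lies at chr10:59323046-59323295 (plus strand), Pdk1 at chr2:71872974-71873223 (plus strand) and Bnip3 at chr7:138909507-138909756 (minus strand), each as the 250 bases before the RefSeq start. Egln1 is shown at chr8:124949325-124949504 (minus strand), the 180 bases of its window that lie before the GENCODE start.
P4ha1: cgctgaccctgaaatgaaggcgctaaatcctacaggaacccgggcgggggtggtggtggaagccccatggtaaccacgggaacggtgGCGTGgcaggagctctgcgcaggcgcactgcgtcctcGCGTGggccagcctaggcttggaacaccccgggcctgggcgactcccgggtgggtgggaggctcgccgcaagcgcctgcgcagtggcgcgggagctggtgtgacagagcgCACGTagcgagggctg
Pdk1: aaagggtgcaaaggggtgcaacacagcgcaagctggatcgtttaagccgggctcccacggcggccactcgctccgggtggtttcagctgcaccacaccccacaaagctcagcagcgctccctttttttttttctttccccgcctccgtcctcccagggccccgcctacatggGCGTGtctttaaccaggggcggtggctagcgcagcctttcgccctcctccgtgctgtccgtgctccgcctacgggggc
Egln1: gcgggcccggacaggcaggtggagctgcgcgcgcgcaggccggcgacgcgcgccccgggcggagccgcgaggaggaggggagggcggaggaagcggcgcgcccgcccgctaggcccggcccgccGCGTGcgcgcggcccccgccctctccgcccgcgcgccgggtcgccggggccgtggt
Bnip3: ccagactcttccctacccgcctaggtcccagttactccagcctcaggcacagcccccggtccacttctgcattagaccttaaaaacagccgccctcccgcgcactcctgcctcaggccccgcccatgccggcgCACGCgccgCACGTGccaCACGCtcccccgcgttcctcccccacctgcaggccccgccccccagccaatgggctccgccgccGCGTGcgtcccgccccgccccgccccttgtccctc

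P4ha1 held 3 cores in its window, 163, 126 and 16 bases before the start, and Pdk1 held 1 core, 78 bases before it. Egln1 held a GCGTG 126 bases before its RefSeq start, shown in capitals, and an ACGTG 68 bases before it, inside the part that GENCODE counts as transcribed. Bnip3 held 5 cores, of which an ACGTG on each strand forms 1 CACGTG palindrome, which is also an E-box. A promoter entry was found for 9 of the 10 genes, and Ndrg1 had none. ACGTG occurred in 6 of 9 windows, against 16.6% of all 32851 promoter windows of the same length, and GCGTG in 6 of 9, against 28.2%. Not all of this sequence lies upstream of the GENCODE gene. The RefSeq starts used for Hif1a and Ankrd37 lie 6492 and 5857 bases from the GENCODE start, and all 250 bases of both windows are inside the gene. The 1 core of Kdm3a, 27 bases before its RefSeq start, lies in the 73 bases inside its gene. The 9 windows had a median GC content of 66.4%, against 52.4% for all windows, and both motifs are rich in G and C. Vegfa was the 1 gene of the 9 with neither core in its window, which says only that those letters are absent there.

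None of the 10 genes passed the threshold between deficient and sufficient cells. The test was limma with a mean-variance trend, adjusted by Benjamini-Hochberg over all 12155 genes, with a gene called at an adjusted p under 0.05. It called 25 genes, 0.206% of those tested. Havcr2 itself was not among them, with a log2 fold change of -1.83 ± 0.48 (SE, limma adjusted p = 0.211). With the date mark added as a block, its limma adjusted p was 0.0148. At an unadjusted p under 0.05, 1 of the 10 genes stood out (P4ha1), against 11.7% of all genes. Every deficient library lay above every sufficient library for P4ha1 and Pdk1 and below it for Egln1, so groups did not overlap at 3 of 10 genes, against 17.6% of all genes (10.9% with the deficient libraries above and 6.73% with them below). The median log2 fold change, deficient minus sufficient, was 0.16 over the 10 genes and 0.094 over all tested genes, with 6 of the 10 positive against 60.1% of all genes. The median of all genes moved by -0.091 under quantile normalization and by -0.13 with equal library medians. None of the 10 genes changed sign under either. Values of 0.598 for P4ha1, 0.433 for Pdk1, 0.896 for Vegfa and -0.612 for Egln1 remain after subtracting that median.

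**Figure D1:**
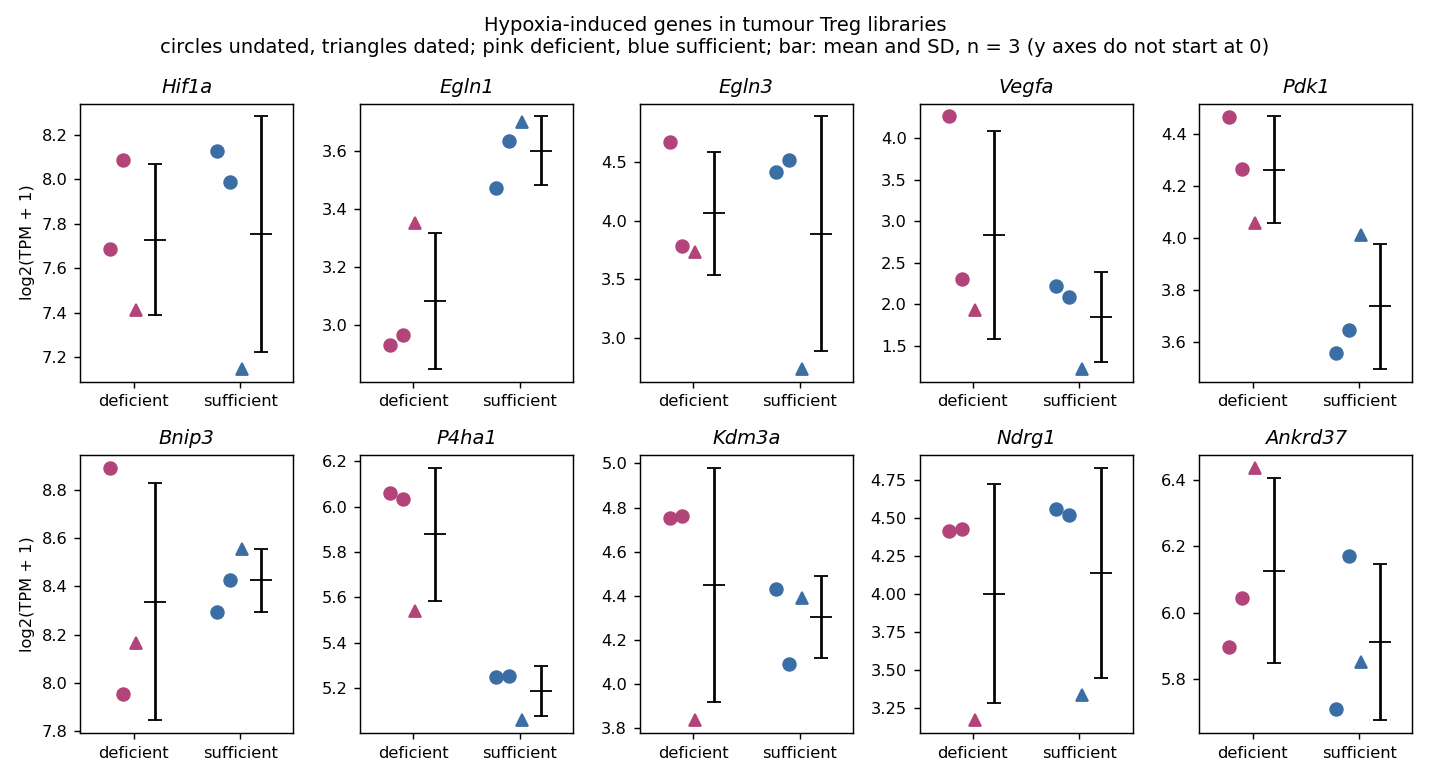
Deposited log2(TPM + 1) of the 10 genes, 1 point per library, deficient libraries in pink on the left and sufficient libraries in blue on the right, circles where the name has no date and triangles where it has one, with the mean and SD of each group (n = 3) as a black bar. The groups are separate for P4ha1, Pdk1 and Egln1, and the single high Vegfa point is deficient C1 at 4.26.

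Hif1a, which encodes the oxygen-labile subunit (ENSMUSG00000021109.13, GRCm38 chromosome 12, 73901375 to 73947530, plus strand), was the second most abundant of the 10 genes. It stood at 205, 271 and 169 TPM in deficient C1, D and dated, against 278, 253 and 141 TPM in sufficient A1, B1 and dated. The groups overlapped almost fully, and the dated library was the lowest of each group. On the log2(TPM + 1) scale the means were 7.73 ± 0.34 in deficient and 7.75 ± 0.53 in sufficient libraries (SD, n = 3 each), a difference of -0.026 ± 0.28 (SE, limma adjusted p = 0.984). The 95% interval of that difference, -0.68 to 0.63, spans changes of either sign, so a modest change is not excluded. Exons of Hif1a overlap the antisense gene Gm15283, at 0.8 to 3.06 TPM, and the same-strand gene Gm49321, at 1.42 to 4.89 TPM, both far below Hif1a. Strand was not stated to be kept, so reads of Hif1a and Gm15283 cannot be told apart where they overlap, and reads from exons shared with Gm49321 are ambiguous on either strand.

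Egln1, the main hydroxylase that marks HIF1A for destruction and itself a HIF target (ENSMUSG00000031987.6, chromosome 8, 124908587 to 124949324, minus strand), was lower in every deficient library. Its log2(TPM + 1) values were 2.93, 2.97 and 3.35 in deficient C1, D and dated, against 3.47, 3.63 and 3.70 in sufficient A1, B1 and dated. The groups did not overlap, although deficient dated lay only slightly under sufficient A1. In TPM the means were 7.54 ± 1.44 in deficient and 11.2 ± 0.98 in sufficient libraries (SD, n = 3 each). The log2 fold change was -0.52 ± 0.24 (SE) with a limma adjusted p of 0.452, and 0.215 with the date mark as a block, so Egln1 did not pass either way. Within the undated libraries the difference was -0.60, and within the dated pair -0.35.

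Egln3, a second hydroxylase whose RNA is strongly induced by hypoxia (ENSMUSG00000035105.5, chromosome 12, 54178981 to 54203860, minus strand), varied widely within both groups. It stood at 4.67, 3.78 and 3.73 in deficient C1, D and dated and at 4.41, 4.52 and 2.74 in sufficient A1, B1 and dated (log2 scale). Single libraries set the direction: the difference was 0.17 ± 0.50 (SE, limma adjusted p = 0.926) with all libraries, -0.40 without sufficient dated and -0.13 without deficient C1. Between undated libraries it was -0.24, and in the dated pair 0.99.

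Vegfa, which encodes the growth factor that draws blood vessels into hypoxic tissue (ENSMUSG00000023951.17, chromosome 17, 46016993 to 46032369, minus strand), was scarce in all libraries but one. It stood at 18.2 TPM in deficient C1, 3.92 in deficient D and 2.82 in deficient dated, against 3.64 in sufficient A1, 3.26 in sufficient B1 and 1.33 in sufficient dated. Deficient C1 was thus several times higher than the other 5 libraries, while deficient dated lay within the range of the sufficient ones. The log2 fold change was 0.99 ± 0.61 (SE, limma adjusted p = 0.556), and 0.27 without deficient C1. Deficient C1 also held the highest sums of macrophage and fibroblast markers, the latter mostly from Dcn. Sufficient B1 held 1079 TPM of macrophage markers and 3.26 TPM of Vegfa. Single markers differed between these libraries. Arg1 was at 414 TPM in deficient C1 and 135 in sufficient B1, Cd14 at 66.7 and 6.44, and Lyz2 at 539 and 491. Apoe went the other way, at 241 and 260 TPM. The part of other cells in the Vegfa value was not tested. In bulk RNA, more cells of a type and more RNA per cell cannot be told apart.

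**Figure D2:**
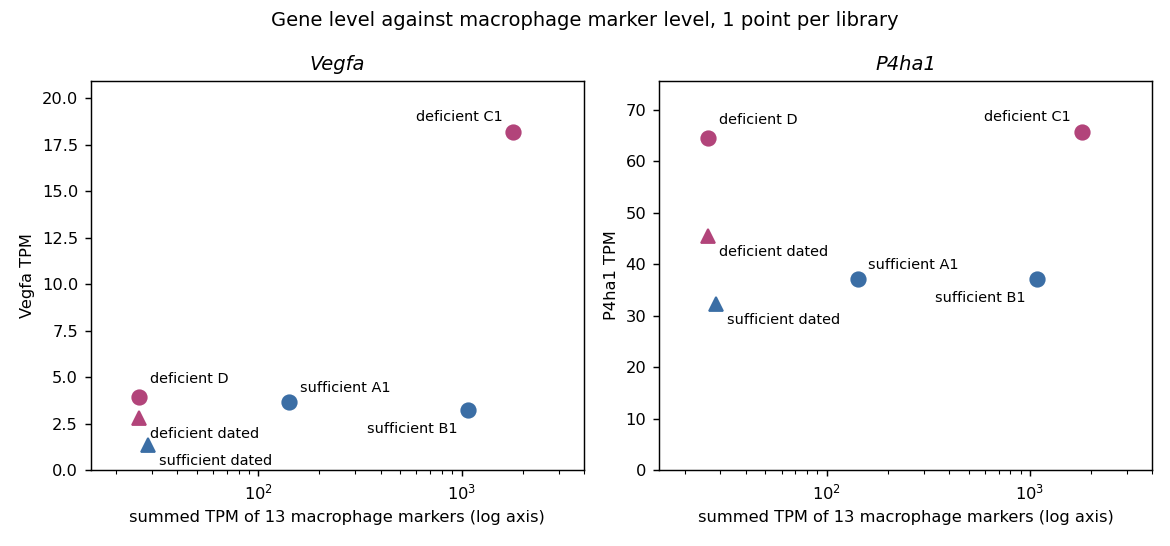
TPM of Vegfa (left) and P4ha1 (right) against the summed TPM of 13 macrophage markers on a log axis, 1 point per library, deficient in pink and sufficient in blue, circles undated and triangles dated. Vegfa is high only in deficient C1, the library with 1795 TPM of markers. P4ha1 is at 65.8 TPM in deficient C1 and at 64.6 and 45.6 TPM in the 2 deficient libraries with the least marker RNA. The part of macrophage RNA in either gene was not tested.

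Pdk1 and Bnip3 act on mitochondria. Pdk1, a kinase that switches off pyruvate dehydrogenase and so keeps pyruvate out of the citric acid cycle (ENSMUSG00000006494.11, chromosome 2, 71873224 to 71903858, plus strand), stood at 4.47, 4.27 and 4.06 in deficient C1, D and dated. In sufficient A1, B1 and dated it stood at 3.56, 3.65 and 4.01 (log2 scale). Every deficient library lay above every sufficient library. The group means of the undated libraries differed by 0.77, and the 2 libraries of the dated pair by only 0.047. Mean TPM was 18.4 ± 2.74 in deficient and 12.5 ± 2.33 in sufficient libraries (SD, n = 3 each). The log2 fold change was 0.53 ± 0.23 (SE), with a limma adjusted p of 0.434, and 0.232 with the date mark as a block.

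Bnip3, a mitochondrial membrane protein that marks mitochondria for autophagy (ENSMUSG00000078566.8, chromosome 7, 138890836 to 138909519, minus strand), was among the most abundant transcripts, at the 95.8 percentile of mean level over tested genes. It stood at 474, 247 and 286 TPM in deficient C1, D and dated, against 313, 343 and 375 TPM in sufficient A1, B1 and dated. Deficient libraries held both the highest and the lowest value, and the sufficient ones fell between them. The SD on the log2 scale was 0.49 in deficient and 0.13 in sufficient libraries. The log2 fold change was -0.088 ± 0.24 (SE, limma adjusted p = 0.92), and 0.10 without deficient D.

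P4ha1 showed the clearest separation of the 10 genes. It encodes the catalytic subunit of the prolyl hydroxylase that stabilises collagen (ENSMUSG00000019916.14, chromosome 10, 59323296 to 59373304, plus strand). Its values were 6.06, 6.03 and 5.54 in deficient C1, D and dated, against 5.25, 5.25 and 5.06 in sufficient A1, B1 and dated (log2 scale). All 3 deficient libraries lay above all 3 sufficient libraries, and the sufficient values lay close together. In TPM the means were 58.6 ± 11.3 in deficient and 35.5 ± 2.76 in sufficient libraries (SD, n = 3 each). The log2 fold change was 0.69 ± 0.20 (SE), 1.61-fold on the log2(TPM + 1) scale, with an unadjusted limma p of 0.00789 and an adjusted p of 0.235, so it did not pass. With the date mark as a block, where limma called 1.97% of all genes, the adjusted p was 0.0566. Within the undated libraries the difference was 0.80, and within the dated pair 0.48. Without deficient C1 and sufficient B1, the libraries with the most macrophage markers, it was 0.63 ± 0.28 (SE, limma adjusted p = 0.853). B cell marker sums were also higher in every deficient library, and Cd3d and Cd3e, 2 of the 8 Treg and T cell markers, lower. The part of these, or of macrophage RNA, in the values of P4ha1, Pdk1 and Egln1 was not tested.

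Kdm3a, a histone demethylase that removes methyl groups from lysine 9 of histone H3 (ENSMUSG00000053470.13, chromosome 6, 71588972 to 71632990, minus strand), moved differently by date mark. It stood at 4.75, 4.76 and 3.83 in deficient C1, D and dated, against 4.43, 4.09 and 4.39 in sufficient A1, B1 and dated. Both undated deficient libraries lay above all sufficient ones, and deficient dated was the lowest of the 6. The log2 fold change over all libraries was 0.15 ± 0.29 (SE, limma adjusted p = 0.88), and it was -0.0061 without deficient C1 and -0.010 without deficient D.

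Ndrg1, a stress-responsive gene widely used as a hypoxia marker (ENSMUSG00000005125.13, chromosome 15, 66929318 to 66969640, minus strand), was lower in both dated libraries than in all others. Its values were 4.41, 4.42 and 3.17 in deficient C1, D and dated, against 4.56, 4.52 and 3.34 in sufficient A1, B1 and dated (log2 scale). The 4 undated libraries differed little from each other, and both dated libraries were more than 1 log2 unit below them. Deficient minus sufficient was -0.14 ± 0.45 (SE, limma adjusted p = 0.93), with -0.12 within the undated libraries and -0.17 within the dated pair.

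Ankrd37, a small ankyrin repeat protein gene whose RNA is induced by HIF1A (ENSMUSG00000050914.16, chromosome 8, 45996902 to 46005707, minus strand), had its highest value in deficient dated. It stood at 58.6, 65.0 and 85.7 TPM in deficient C1, D and dated, against 51.3, 71.0 and 56.7 TPM in sufficient A1, B1 and dated. The groups overlapped, with a log2 fold change of 0.22 ± 0.20 (SE, limma adjusted p = 0.72). The value rested on deficient dated: it was 0.061 without that library and 0.031 without both dated libraries. Exons of Ankrd37 overlap those of Ufsp2 on the opposite strand, which stood at 45.6 to 50.4 TPM in deficient and 38.0 to 51.3 TPM in sufficient libraries. At such similar levels, reads assigned to Ankrd37 may include some of Ufsp2.

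**Figure D3:**
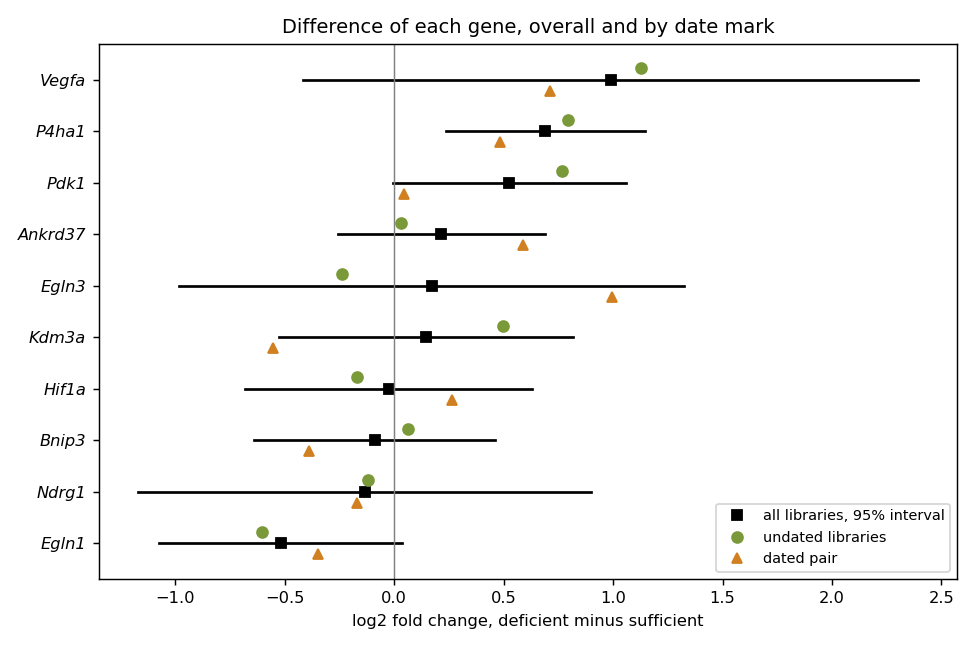
Log2 fold change of each gene, deficient minus sufficient, as black squares with 95% intervals from limma, with the difference among the 4 undated libraries as green circles and in the dated pair as orange triangles. P4ha1 is the 1 gene whose interval (0.24 to 1.14) does not reach 0, before any adjustment for the number of genes tested, and the undated and dated differences have opposite signs for Kdm3a (0.50 and -0.55), Egln3 (-0.24 and 0.99), Hif1a (-0.17 and 0.26) and Bnip3 (0.064 and -0.39).

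The 10 genes did not share 1 pattern over the libraries. Both dated libraries lay below all 4 undated libraries for Hif1a, Egln3, Vegfa and Ndrg1, 4 of 10 genes against 23.4% of all genes, and no gene of the 10 showed the reverse, against 7.07%. Dated and undated libraries averaged 3.25 and 4.48 for Ndrg1, 3.23 and 4.34 for Egln3, 1.58 and 2.72 for Vegfa, and 7.28 and 7.97 for Hif1a. Single libraries weigh on 2 of these genes. Egln3 in deficient dated (3.73) lay just under deficient D (3.78), and the undated Vegfa mean includes deficient C1 at 4.26. The dated libraries also had the fewest genes at 1 TPM, 11474 in deficient dated and 11470 in sufficient dated. Deficient C1 held the highest value of 5 of the 10 genes (Egln3, Vegfa, Pdk1, Bnip3 and P4ha1), and sufficient dated held the lowest value of 4 (Hif1a, Egln3, Vegfa and P4ha1). Deficient C1 also had the most genes at 1 TPM, 12681. The matching shares over all genes were not computed, so these counts cannot be read as particular to the 10 genes. The mean over the 10 genes was 5.40, 5.06 and 4.76 in deficient C1, D and dated, against 5.002, 5.03 and 4.60 in sufficient A1, B1 and dated.

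**Figure D4:**
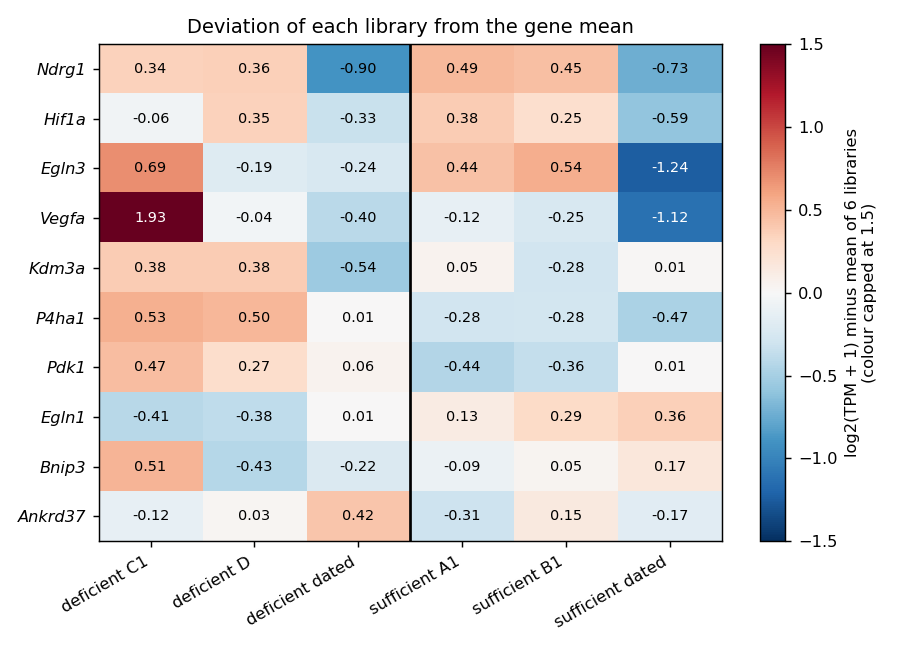
Deviation of each library from the mean of the 6 libraries for each gene in log2(TPM + 1), with deficient libraries left of the black line and sufficient libraries right of it. Ndrg1 is low in both dated libraries (-0.90 in deficient dated and -0.73 in sufficient dated), Vegfa is high in deficient C1 (1.93), and P4ha1 and Pdk1 are at or above 0 in all deficient libraries.

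Genes of oxygen sensing, a list that includes Hif1a, Egln1 and Egln3, showed no called change. Of 15 tested genes for HIF subunits and their regulators, 0 were called by limma. An unadjusted p under 0.05 was found for 1, against 11.7% of all genes, and 7 were positive, against 60.1%. The median log2 fold change was -0.026, the value of Hif1a itself, against 0.094 over all genes. The 3 of smallest p were Crebbp, a coactivator of HIF1A, Egln1, and Egln2, another hydroxylase. Crebbp stood at 3.61, 3.32 and 3.22 in deficient and at 4.14, 4.14 and 3.78 in sufficient libraries, without overlap (-0.64 ± 0.23 SE, limma adjusted p = 0.344). Egln2 had 0.45, opposite in sign to Egln1. Epas1, which encodes the HIF2 alpha subunit, and Hif3a did not reach the level needed for testing, with highest values of 1.37 and 0.95 on the log2 scale.

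Glycolytic genes that hypoxia induces were abundant and centred near 0. Of 18 tested, 0 were called by limma and 1 had an unadjusted p under 0.05, against 11.7% of all genes. Positive values were found for 10, against 60.1% of all genes, and negative values for 8. The median was 0.060, against 0.094 over all genes. Aldoc, the brain-type aldolase, had 4.62, 5.32 and 5.83 in deficient C1, D and dated, against 6.31, 6.43 and 6.11 in sufficient A1, B1 and dated, a log2 fold change of -1.02 ± 0.29 (SE, limma adjusted p = 0.239). Its groups did not overlap. Hk2, the inducible hexokinase, had -0.85 and Pgk1, phosphoglycerate kinase, -0.20. Both dated libraries lay below all undated ones for 11 of these 18 genes, against 23.4% of all genes.

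Among 25 tested genes of other hypoxia responses, 0 were called by limma, and the median was 0.19. An unadjusted p under 0.05 was found for 4 of the 25, against 11.7% of all genes, and 18 were positive, against 60.1%. Ero1l, the endoplasmic reticulum oxidase that forms disulphide bonds, stood at 7.29, 6.80 and 7.08 in deficient and at 6.35, 6.54 and 6.10 in sufficient libraries (0.73 ± 0.19 SE, limma adjusted p = 0.194). The chemokine receptor gene Cxcr4 had 0.65 (limma adjusted p = 0.214), and Ddit4, an inhibitor of mTOR signalling, -0.96 (limma adjusted p = 0.39). Ero1l and Cxcr4 did not overlap between groups, as was the case for 3 of the 25 genes in the higher direction against 10.9% of all genes.

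Of the 8 VEGF ligands and receptors, only Vegfa, Vegfb and Nrp1 were high enough to test, and 0 were called by limma. Of these, 1 had an unadjusted p under 0.05, against 11.7% of all genes. Nrp1, a VEGF co-receptor that Treg cells also carry, stood at 5.07, 5.59 and 5.33 in deficient C1, D and dated, against 4.18, 4.22 and 4.30 in sufficient A1, B1 and dated (limma adjusted p = 0.0959). The groups did not overlap, and the means differed 2.14-fold on the log2(TPM + 1) scale. With the date mark as a block its limma adjusted p was 0.0362, so that fit called Nrp1, the 1 gene of this list it called. Vegfb had 0.65. Kdr, the main signalling receptor for VEGF, had a highest value of 0.56 on the log2 scale.

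Pdk1 and its partners had mostly positive values, and none passed. Of 10 tested genes of the pyruvate dehydrogenase complex, its kinases and its phosphatases, Pdk1 itself included, 0 were called by limma. An unadjusted p under 0.05 was found for 2 of the 10, against 11.7% of all genes, and 9 were positive, against 60.1%. The median was 0.34, against 0.094 over all genes. Dlat, the acetyltransferase subunit of the complex, had 0.91 (limma adjusted p = 0.395), and Pdp1, a phosphatase that reactivates the complex, 0.92 (limma adjusted p = 0.422), so the kinase that blocks the complex and the phosphatase that restores it had the same sign. Within the undated libraries the median of these genes was 0.44, against 0.094 over all genes. Within the dated pair it was 0.17, against 0.082. Pdk4 was listed at 0 in all 6 libraries.

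Genes of mitophagy, Bnip3 itself included, had values of both signs. Of 11 tested, 0 were called by limma and 0 had an unadjusted p under 0.05, against 11.7% of all genes. Positive values were found for 5, against 60.1% of all genes, and negative values for 6. The median was -0.088, the value of Bnip3 itself, against 0.094 over all genes. The autophagy receptor gene Sqstm1 had 0.44, the mitophagy receptor gene Fundc1 -0.37 and the kinase gene Pink1 -0.31. Among relatives of the 10 genes, 0 of 6 tested were called by limma, and 1 had an unadjusted p under 0.05, against 11.7% of all genes. Ndrg2, a relative of Ndrg1, stood at 3.57, 4.04 and 3.76 in deficient and 3.35, 3.32 and 2.90 in sufficient libraries (0.60 ± 0.25 SE, limma adjusted p = 0.416), and Jmjd1c, a relative of Kdm3a, had 0.21. P4ha2, a relative of P4ha1, had 3.60 in deficient C1, 1.20 in deficient D and 0.42 in deficient dated, against 0.71, 1.67 and 0.95 in sufficient A1, B1 and dated. P4ha2 was thus high in deficient C1 alone, as Vegfa was, and unlike P4ha1.

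**Figure D5:**
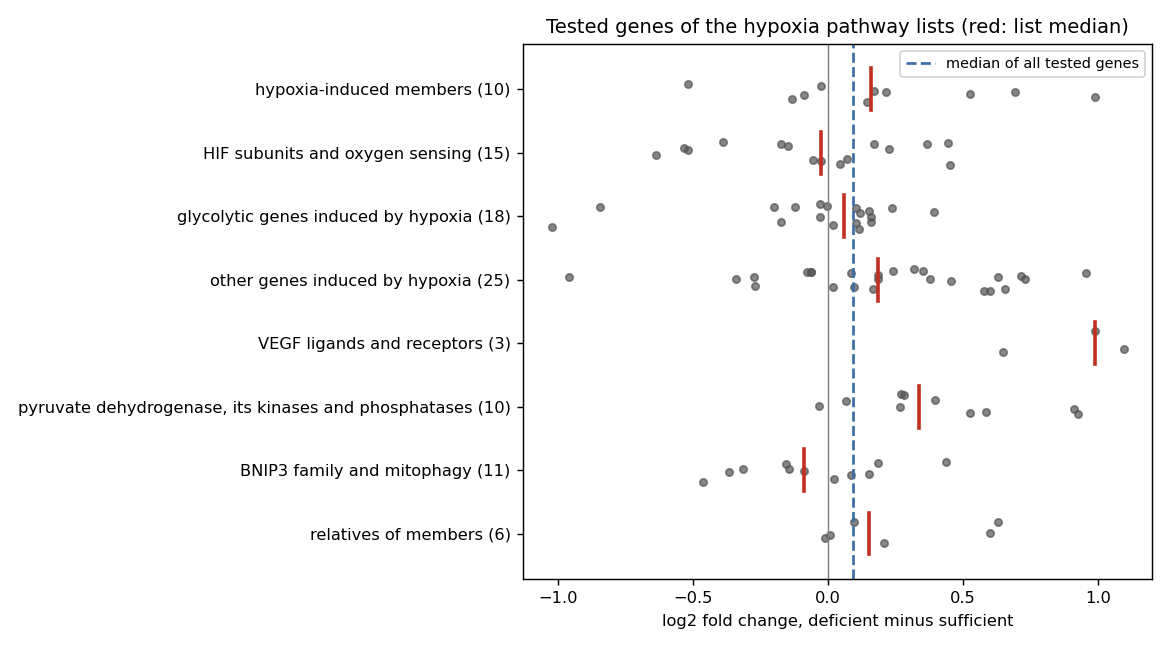
Log2 fold change (deficient minus sufficient) of each tested gene of the hypoxia lists as grey points, with the number tested in brackets, the list median as a red bar and the median of all 12155 tested genes (0.094) as a dashed line. The 10 genes have a median of 0.16, and the pyruvate dehydrogenase list, which includes Pdk1, a median of 0.34 over 10 genes.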

How the data were processed

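RNA of sorted tumour Treg cells was sequenced, per the labels' protocols, from Nextera XT libraries as paired reads. The submitters' processing notes list STAR, RSEM and limma (no versions) and the builds GRCm38 and mm10. The authors deposited 1 table of log2 gene values. Converted to linear values and summed they give 1000000 per library within rounding, so they are log2(TPM + 1). Read depth is unknown, and no counting interval was computed. All 55450 gene IDs matched GENCODE M21, whose GRCm38 coordinates and symbols were used.

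Groups were compared with limma 3.58.1 in R 4.3.3 (lmFit, eBayes with a mean-variance trend, no covariate) on genes with at least 1 TPM in at least 3 libraries, and the scripts were tested on simulated data. Fold changes are differences of log2(TPM + 1) and understate changes of low genes. Beside the 10 genes, the text names the 3 genes of smallest p in each list. Members and lists were chosen with earlier results of these data known. Macrophage markers chose 1 added alternative after seeing the data. Python 3.11.15 and matplotlib 3.10.9 were used for annotation and figures.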

Additional observations from a re-analysis of the deposited data

Results flagged for a closer look

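Kdm3a differed in direction between the undated and the dated libraries. Both undated deficient libraries (4.75 and 4.76) lay above both undated sufficient libraries (4.43 and 4.09), a difference of 0.50, whereas the dated pair went the other way, with 3.83 in deficient dated and 4.39 in sufficient dated, a difference of -0.555. The interaction of group and date mark in limma had an unadjusted p of 0.0321 and an adjusted p of 0.765 over 12155 genes, so it did not pass. The same pattern of opposite signs occurred at 16.7% of all tested genes. What the date mark stands for is not stated, and each dated value is a single library.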

How the results depend on the processing

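None of the 10 genes was called by limma under any of 17 alternatives, with P4ha1 nearest (adjusted p 0.0566 to 0.853). Egln1, Vegfa, Pdk1, P4ha1 and Ankrd37 kept their sign in every alternative run (Vegfa failed the filter at 5 TPM). Without both dated libraries Egln3 had -0.24 and Bnip3 0.064. Without deficient C1 and sufficient B1, chosen after seeing the data, Hif1a had 0.11 and Kdm3a -0.11, and the causes were not tested. Leaving out 1 library at a time gave -0.33 to 0.16 for Hif1a, -0.40 to 0.48 for Egln3, -0.37 to 0.10 for Bnip3, -0.010 to 0.45 for Kdm3a, -0.53 to 0.28 for Ndrg1, 0.27 (without deficient C1) to 1.44 for Vegfa, 0.061 (without deficient dated) to 0.35 for Ankrd37, and -0.0050 to 0.31 for the median of the 10 genes. Hif1a turned positive without deficient dated, sufficient A1 or sufficient B1, as did Ndrg1, and Bnip3 without deficient D. Egln3 turned negative without deficient C1 or sufficient dated, and Kdm3a without deficient C1 or deficient D. The 25 genes called over the whole table became 1 with no filter on low values, 38 with quantile normalization (16 higher and 22 lower, against 16 and 9), 30 with equal library medians (11 higher and 19 lower), 4 without a trend, 240 with the date mark as a block, 215 without both dated libraries, 90 at an adjusted p under 0.1 and 0 without deficient C1 and sufficient B1 (748 at an unadjusted p under 0.05). They numbered 0 to 121 with 1 library left out: 0 without deficient D (944 at an unadjusted p under 0.05) or sufficient B1 (978), 2 without sufficient A1, 11 without deficient C1 and 121 without deficient dated. No paired analysis was possible because the column names carry no replicate number of the labels. With 3 libraries a group and no depth, modest changes of single genes were not resolvable. A larger one could also go uncalled, as Havcr2 did in the main fit at -1.83.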

Other observations

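A few hypoxia-responsive genes, chosen after their values were seen, add to the picture by library. Adm, which encodes the vasodilator peptide adrenomedullin, stood at 3.79 in deficient C1, 0.77 in deficient D and 0.86 in deficient dated, against 1, 1.44 and 0.84 in sufficient A1, B1 and dated on the log2(TPM + 1) scale. It was thus high in deficient C1 alone. Cited2, which encodes a competitor of HIF1A for the coactivators CBP and EP300, was high in both dated libraries. It stood at 3.54, 3.10 and 5.17 in deficient C1, D and dated, against 3.74, 3.26 and 5.35 in sufficient A1, B1 and dated. Ndrg1 and Egln3 had their lowest values in those same 2 libraries, Egln3 only narrowly in deficient dated (3.73, against 3.78 in deficient D). Ankrd37 instead had its highest value in deficient dated (6.44). Any link of these genes to Cited2 was not tested. Between deficient and sufficient libraries Cited2 overlapped (-0.18 ± 0.66 SE, limma adjusted p = 0.939). Pfkl, a phosphofructokinase, was also lower with the date mark, at 6.57, 6.12 and 4.99 in deficient C1, D and dated and at 6.17, 5.89 and 4.45 in sufficient A1, B1 and dated.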
